A study of Homo sapiens with 21 samples.

Results

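The effect of tunicamycin on messenger RNA in OCI-AML3 cells was compared between 24 h and 4 h of treatment. OCI-AML3, labelled OCI AML3, is a single established cell line from acute myeloid leukaemia, and tunicamycin was given at 1 µg/mL in the solvent DMSO. The comparison rests on 12 of the 21 libraries of the study, and a library's group was taken from its label. They form 4 groups of 3, namely DMSO for 4 h, tunicamycin for 4 h, DMSO for 24 h and tunicamycin for 24 h. The quantity reported is a difference of 2 differences on the log2 scale. The effect at each time is tunicamycin minus the DMSO control of that time, and the difference is the effect at 24 h minus the effect at 4 h. A positive difference therefore means that tunicamycin libraries stood higher against their own control at 24 h than at 4 h, which can come from the tunicamycin libraries, from the DMSO libraries or from both.

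Tunicamycin blocks the first step of N-glycan assembly in the endoplasmic reticulum (ER), so that glycoproteins misfold and the unfolded protein response is switched on. Its PERK branch phosphorylates eIF2α, slows translation and favours the factors ATF4 and CHOP, which drive genes of amino acid supply, oxidative stress and cell death. Its IRE1 and ATF6 branches, through spliced XBP1 and cleaved ATF6, drive chaperones, glycosylation and the degradation of misfolded ER proteins. The branches are known to follow different time courses, and the comparison of both times asks which genes keep, lose or gain their response.

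The 12 libraries held 14108151 to 18341518 counts (median 15833161.5), and 3 counts corresponded to 0.164 to 0.213 CPM, counts relative to the library total. Libraries of the same group correlated at 0.985 to 0.993 across genes. Of 12 markers of myeloid leukaemia cells, 11 passed the filter on low counts. The progenitor receptor KIT was at 0 to 0.0650 CPM and the granule enzyme MPO at 0.911 to 1.57 CPM, whereas SPI1, the master factor of myeloid cells, was at 186 to 277 CPM. The 6 T cell markers summed to at most 0.392 CPM in any library, with 3 of them at 0 in all 12. The 5 B cell markers summed to 1.85 to 3.32 CPM, 10 erythroid and megakaryocyte markers to 0.941 to 2.80 CPM with 6 at 0, and 7 epithelial markers to 0.735 to 3.22 CPM with 3 at 0. The 6 fibroblast and endothelial markers summed to 37.6 to 56.7 CPM in the other groups and to 113 to 140.1 CPM in tunicamycin at 24 h, through PECAM1, an adhesion molecule that myeloid cells also carry, at 17.2 to 133 CPM. The collagen COL1A2 was at 4.80 to 28.2 CPM and went the other way, with a difference of -1.46 (SE 0.19, adjusted p = 1.47e-05), and COL3A1 was at 0. The labels do not say whether replicates came from separate cultures, so the p-values measure the spread between these libraries. In RNA from a bulk culture, fewer cells of a state and less RNA per cell cannot be told apart.

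A gene was called when its adjusted p was at most 0.05 and its log2 difference exceeded 1 in size. Of 14012 genes tested, the effect was higher at 24 h than at 4 h for 487 genes, 3.48% of those tested, and lower for 362 genes, 2.58%. Scaled to library size alone, without TMM factors, the counts were 672 higher and 282 lower. By adjusted p alone, 2111 genes (15.1%) had a higher and 2842 (20.3%) a lower effect at 24 h, and the median over all genes was -0.02. Without TMM factors 2776 genes were higher and 2164 lower by adjusted p alone, so which direction held more genes depends on the scaling. The shares of 15.1% and 20.3% used below hold for the main scaling, as do those of the lists. Tunicamycin against DMSO called 484 genes higher (3.45%) and 206 lower (1.47%) at 4 h, and 568 higher (4.05%) and 317 lower (2.26%) at 24 h. Between the times, tunicamycin libraries alone had 1005 genes higher at 24 h (7.17%) and 430 lower (3.07%), and DMSO libraries alone had 488 higher (3.48%) and 93 lower (0.664%). Of the 487 genes with a higher effect at 24 h, 275 were called between the times in tunicamycin alone, 27 in DMSO alone, 35 in both and 150 in neither. Of the 362 with a lower effect, these counts were 161, 73, 13 and 115. The DMSO libraries thus carried a call of their own for 86 of the 362. Transcripts of the genes with a lower effect had a median GC content of 53.7% and a median length of 2690 bases, against 48.4% and 3592 bases over all genes, and those with a higher effect had 48.9% and 3656.5 bases. After correction for GC content 523 genes had a higher and 336 a lower effect at 24 h, and after correction for length 512 and 334.

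**Figure D1:**
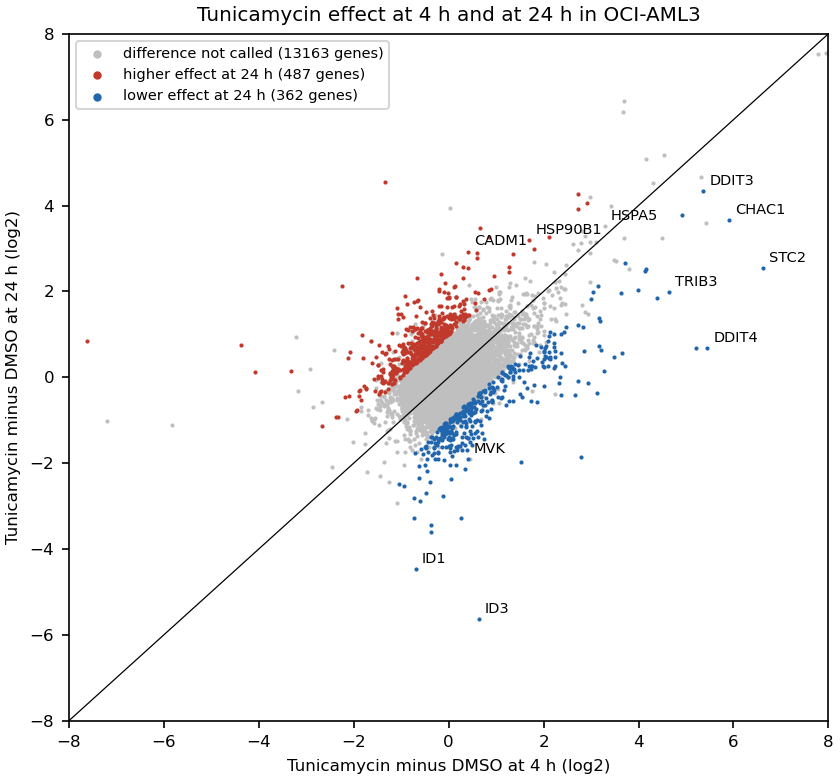
Each point is 1 of 14012 genes, with the log2 effect of tunicamycin against DMSO at 4 h on the horizontal axis and at 24 h on the vertical axis; the line marks equal effects and 1 gene lies outside the axes. The 487 genes with a higher effect at 24 h (red) lie above the line and the 362 with a lower effect (blue) below it, with TRIB3, CHAC1, STC2 and DDIT4 far to the right and ID1 and ID3 at the bottom.

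The 849 called genes were sorted by what tunicamycin did at each time. An early rise that was smaller at 24 h was found for 126 genes, of which 23 were still called higher at 24 h. An early fall that was smaller at 24 h was found for 87. At 24 h alone, 173 genes were called higher and 146 lower. In 10 genes the effect had the same direction at both times and was larger at 24 h, in 4 it had opposite directions, and 303 genes were called at neither time although the difference was called.

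Genes of the PERK branch and of ATF4 and CHOP were prominent in the early rise. TRIB3, a pseudokinase induced by ATF4 and CHOP (chr20:362835-397559 in GRCh38), was at 29.8, 25.7 and 24.0 CPM in DMSO at 4 h, 670.1, 672 and 630.2 in tunicamycin at 4 h, 40.2, 43.4 and 45.9 in DMSO at 24 h and 180.1, 179 and 154 in tunicamycin at 24 h. The groups did not overlap, and the tunicamycin libraries at 24 h stood between those at 4 h and both controls. The effect on TRIB3 was 4.64 at 4 h and 1.99 at 24 h, a difference of -2.65 (SE 0.11, adjusted p = 8.30e-14). CHAC1, which degrades glutathione, was at 3.26, 2.69 and 1.83 CPM in DMSO at 4 h, 149, 159.7 and 150.2 in tunicamycin at 4 h, 3.01, 4.13 and 5.01 in DMSO at 24 h and 55.7, 55.1 and 42.1 in tunicamycin at 24 h. Its effect was 5.90 at 4 h and 3.65 at 24 h, with a difference of -2.24 (SE 0.25, adjusted p = 7.32e-07), so that CHAC1 remained far above its control at 24 h. ATF3, a stress-induced transcription factor, was at 2.19, 0.960 and 1.32 CPM in DMSO at 4 h, 20.2, 18.7 and 17.3 in tunicamycin at 4 h, 2.94, 3.00 and 2.39 in DMSO at 24 h and 4.08, 3.5 and 4.63 in tunicamycin at 24 h. Here the tunicamycin libraries came close to their control at 24 h, and the difference was -3.10 (SE 0.27, adjusted p = 2.07e-08). DDIT3, which encodes CHOP, was at 10.4, 11 and 11.6 CPM in DMSO at 4 h, 436, 477 and 448 in tunicamycin at 4 h, 9.25, 10.9 and 12.4 in DMSO at 24 h and 209, 253 and 194 in tunicamycin at 24 h. Its difference was small beside its effects of 5.36 at 4 h and 4.33 at 24 h, at -1.03 (SE 0.16, adjusted p = 3.58e-05), and was under 1 in size in 12 of 22 alternatives. PPP1R15A, the GADD34 subunit that directs dephosphorylation of eIF2α, had effects of 2.39 at 4 h and 0.33 at 24 h and a difference of -2.06 (SE 0.11, adjusted p = 1.83e-11).

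Of the 16 genes listed for this branch, all passed the filter, 1 (6.2%) had a higher and 9 (56.2%) a lower effect at 24 h at adjusted p of at most 0.05, and 8 of the lower ones were called. Over all genes tested these shares were 15.1% higher and 20.3% lower, and each list is read against them. The median difference of the list was -0.68. ATF5, a factor under translational control of the same pathway, was the single gene that passed in the other direction, with effects of 1.07 at 4 h and 2.0 at 24 h and a difference of 0.93 (SE 0.14, adjusted p = 4.10e-05). EIF2AK3, which encodes PERK itself, had effects of 1.64 at 4 h and 1.47 at 24 h, and its difference of -0.17 (SE 0.12) did not pass the test (adjusted p = 0.299). For ATF4, chosen after its values were seen, the effects were 1.01 at 4 h and 0.90 at 24 h and the difference was -0.11 (SE 0.12, adjusted p = 0.51).

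A second set of early genes had controls that moved as well. DDIT4, an inhibitor of mTORC1 that also responds to low oxygen and low energy, was at 19.1, 10.8 and 11.4 CPM in DMSO at 4 h, 616, 604 and 564 in tunicamycin at 4 h, 304, 257 and 289.6 in DMSO at 24 h and 475, 448 and 432 in tunicamycin at 24 h. Tunicamycin libraries differed far less between the times than DMSO libraries, of which those at 24 h were all above 250 CPM and those at 4 h all below 20. The difference of -4.77 (SE 0.17, adjusted p = 9.84e-15) therefore held a change of 4.37 in DMSO and of -0.40 in tunicamycin. In untreated cells at 0 h DDIT4 was at 13.3 ± 0.395 CPM (SD, n = 3). STC2, a secreted glycoprotein and ATF4 target, was at 0.465, 1.79 and 1.26 CPM in DMSO at 4 h, 123, 112 and 118 in tunicamycin at 4 h, 10.4, 7.59 and 10.3 in DMSO at 24 h and 54.7, 51.4 and 58.6 in tunicamycin at 24 h. Its difference of -4.08 (SE 0.23, adjusted p = 2.51e-11) combined a change of 2.98 in DMSO with one of -1.10 in tunicamycin. TSC22D3, a leucine zipper gene responsive to glucocorticoids, was at 22.8, 16.8 and 17.3 CPM in DMSO at 4 h, 216, 216 and 205 in tunicamycin at 4 h, 90.5, 85.8 and 93.2 in DMSO at 24 h and 119, 129 and 123 in tunicamycin at 24 h, with a difference of -3.02 (SE 0.11, adjusted p = 9.84e-15) and a DMSO change of 2.25.

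The secreted stress factors gave 5 of 7 tested genes, of 11 listed, with a lower effect and none with a higher one, at a median of -1.48. In this list the median change from 4 h to 24 h was 1.64 in DMSO and -0.03 in tunicamycin. ADM2, a peptide hormone of the calcitonin family, had effects of 4.13 at 4 h and 2.47 at 24 h and a difference of -1.67 (SE 0.15, adjusted p = 5.26e-08).

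**Figure D2:**
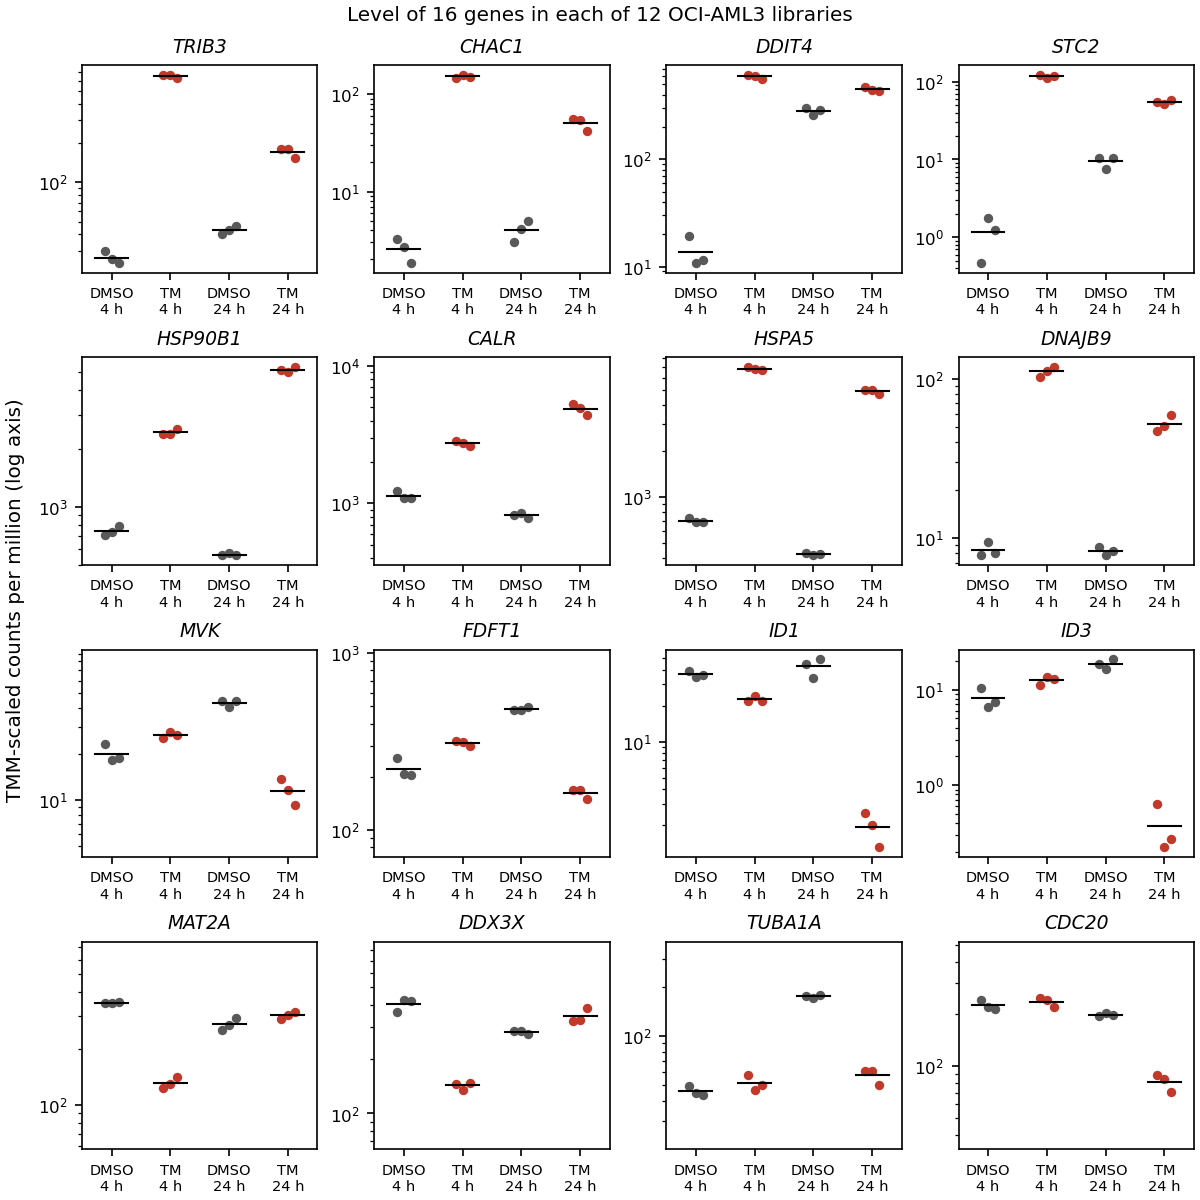
TMM-scaled CPM on a log axis for 16 genes, with 1 point for each of the 12 libraries (grey DMSO, red tunicamycin, TM) and a bar at the mean of 3. TRIB3, CHAC1 and DNAJB9 peak in tunicamycin at 4 h, HSP90B1 and CALR are highest in tunicamycin at 24 h, and DDIT4, STC2 and TUBA1A also differ between the DMSO groups.

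Amino acid supply genes, many of which ATF4 controls, were read as 3 lists. Among 20 enzymes of serine, asparagine, proline and one-carbon metabolism, 1 (5.0%) had a higher and 12 (60.0%) a lower effect at 24 h, and the median difference was -0.35. CTH, the last enzyme of the transsulfuration route to cysteine, was at 4.92, 5.12 and 4.86 CPM in DMSO at 4 h, 42.9, 44.3 and 47.6 in tunicamycin at 4 h, 6.38, 4.60 and 6.47 in DMSO at 24 h and 8.71, 10.2 and 9.80 in tunicamycin at 24 h. Its effect was 3.18 at 4 h and 0.73 at 24 h and its difference -2.45 (SE 0.16, adjusted p = 1.51e-10). PSPH, the last enzyme of serine synthesis, differed by -1.21 (SE 0.14, adjusted p = 1.2e-06), and the mitochondrial folate enzyme MTHFD2 by -0.93 (SE 0.099, adjusted p = 3.56e-07). Of 23 cytosolic aminoacyl-tRNA synthetases and their partners, 0 (0.0%) had a higher and 15 (65.2%) a lower effect at 24 h, at a median of -0.38. None of them was called, since the sizes were small, as for CARS1 with -0.78 (SE 0.087, adjusted p = 7.40e-07). Of 15 amino acid transporters, 3 (20%) had a higher and 6 (40.0%) a lower effect at 24 h, and their median was -0.003. SLC7A11, the cystine importer, was at 2.92, 5.12 and 4.01 CPM in DMSO at 4 h, 115, 112 and 136 in tunicamycin at 4 h, 2.51, 2.60 and 1.39 in DMSO at 24 h and 26.8, 26.4 and 36.7 in tunicamycin at 24 h. Its difference of -1.13 (SE 0.31, adjusted p = 0.0078) did not pass the test without DMSO 24 h replicate 2 (adjusted p = 0.0600). SLC3A2, the heavy chain shared by several importers, differed by -0.88 (SE 0.1, adjusted p = 1.23e-06), whereas SLC38A1, a glutamine importer, had a higher effect at 24 h, by 0.35 (SE 0.12, adjusted p = 0.0299), and its adjusted p was above 0.05 in 6 of 22 alternatives.

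The 4 ER chaperones called with a higher effect at 24 h come next. HSP90B1, the ER member of the HSP90 family (chr12:103930107-103953931), was at 710.4, 735 and 790.2 CPM in DMSO at 4 h, 2375, 2385 and 2512 in tunicamycin at 4 h, 562, 571 and 559 in DMSO at 24 h and 5093, 4989.5 and 5309 in tunicamycin at 24 h. Every tunicamycin library at 24 h was above every one at 4 h. The effect was 1.70 at 4 h and 3.19 at 24 h, a difference of 1.48 (SE 0.089, adjusted p = 4.78e-11). Calreticulin, CALR, the lectin chaperone of glycoproteins, was at 1223, 1092 and 1101 CPM in DMSO at 4 h, 2851, 2735 and 2625 in tunicamycin at 4 h, 828, 858 and 785 in DMSO at 24 h and 5272, 4982 and 4378 in tunicamycin at 24 h. CALR had effects of 1.27 at 4 h and 2.57 at 24 h and a difference of 1.3 (SE 0.099, adjusted p = 2.58e-09). PDIA3, the disulphide isomerase that works with calreticulin, was called at 24 h and not at 4 h, with effects of 0.95 at 4 h and 2.37 at 24 h and a difference of 1.42 (SE 0.08, adjusted p = 2.42e-11). CRELD2, a secreted ER stress protein, was at 63.5, 57.2 and 54.2 CPM in DMSO at 4 h, 242, 264 and 247 in tunicamycin at 4 h, 52.6, 51.0 and 55.8 in DMSO at 24 h and 555, 544 and 441 in tunicamycin at 24 h. CRELD2 differed by 1.17 (SE 0.12, adjusted p = 1.37e-07). Each of the 4 had its highest level in tunicamycin at 24 h.

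Of 32 ER chaperones and cochaperones tested, 16 (50.0%) had a higher and 2 (6.2%) a lower effect at 24 h, against 15.1% and 20.3% of all genes, with a median difference of 0.30. The median change of the list from 4 h to 24 h was -0.21 in DMSO and 0.14 in tunicamycin. DNAJB9, a BiP cochaperone and IRE1 repressor, went the other way and was called lower. It was at 7.77, 9.41 and 8.01 CPM in DMSO at 4 h, 103, 112 and 119 in tunicamycin at 4 h, 8.75, 7.79 and 8.24 in DMSO at 24 h and 46.9, 50.3 and 59.4 in tunicamycin at 24 h, a difference of -1.06 (SE 0.16, adjusted p = 2.06e-05) that was under 1 in size in 6 of 22 alternatives. HSPA5, which encodes BiP, the main HSP70 of the ER, was at 734, 686 and 691 CPM in DMSO at 4 h, 7056, 6801 and 6749 in tunicamycin at 4 h, 436, 419 and 424 in DMSO at 24 h and 4994, 5011 and 4712 in tunicamycin at 24 h. Its tunicamycin level was lower at 24 h than at 4 h, and its control was lower too, so that the effect was 3.29 at 4 h and 3.52 at 24 h. The difference of 0.24 (SE 0.08, adjusted p = 0.025) had an adjusted p above 0.05 in 6 of 22 alternatives. HYOU1, the BiP exchange factor, had effects of 2.72 at 4 h and 2.97 at 24 h and a difference of 0.25 (SE 0.11) with an adjusted p of 0.072, and ERO1B, an oxidase of disulphide formation, one of -0.05 (SE 0.16) with an adjusted p of 0.847.

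Promoters are shown for 3 chaperone genes with a larger effect at 24 h and for CHAC1 from the early rise, because the ER stress response element (ERSE, CCAAT, 9 bases, CCACG) is known to bind NF-Y with ATF6 or XBP1, and the C/EBP-ATF element (TGATGNAA) is known to bind ATF4 and CHOP. The sequences are RefSeq promoters of GRCh38.p14, 300 bases on the strand of the gene that run 5′ to 3′ into the first bases of the transcript. Capitals mark a match on either strand, to the ERSE in the first 3 and to the C/EBP-ATF element in CHAC1.
HSP90B1, chr12:103930160-103930459, plus strand: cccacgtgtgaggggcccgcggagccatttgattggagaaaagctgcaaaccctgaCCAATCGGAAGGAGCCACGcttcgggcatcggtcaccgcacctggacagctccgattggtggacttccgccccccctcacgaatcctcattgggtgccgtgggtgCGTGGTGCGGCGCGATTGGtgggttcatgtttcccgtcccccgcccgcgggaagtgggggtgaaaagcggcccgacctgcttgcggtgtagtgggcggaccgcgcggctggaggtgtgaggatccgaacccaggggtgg
CALR, chr19:12938359-12938658, plus strand: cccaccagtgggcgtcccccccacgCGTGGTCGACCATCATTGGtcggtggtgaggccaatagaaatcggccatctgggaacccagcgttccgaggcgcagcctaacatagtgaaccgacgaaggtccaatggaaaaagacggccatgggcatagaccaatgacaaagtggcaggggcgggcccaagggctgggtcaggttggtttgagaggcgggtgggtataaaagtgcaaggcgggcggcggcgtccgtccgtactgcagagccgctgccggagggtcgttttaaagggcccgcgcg
CRELD2, chr22:49918384-49918683, plus strand: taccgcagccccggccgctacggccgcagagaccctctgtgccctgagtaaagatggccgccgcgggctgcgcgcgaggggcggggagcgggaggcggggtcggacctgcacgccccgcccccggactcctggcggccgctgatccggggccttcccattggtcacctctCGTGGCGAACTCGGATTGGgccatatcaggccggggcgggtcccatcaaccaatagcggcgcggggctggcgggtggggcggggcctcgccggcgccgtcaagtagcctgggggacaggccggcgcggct
CHAC1, chr15:40953221-40953520, plus strand: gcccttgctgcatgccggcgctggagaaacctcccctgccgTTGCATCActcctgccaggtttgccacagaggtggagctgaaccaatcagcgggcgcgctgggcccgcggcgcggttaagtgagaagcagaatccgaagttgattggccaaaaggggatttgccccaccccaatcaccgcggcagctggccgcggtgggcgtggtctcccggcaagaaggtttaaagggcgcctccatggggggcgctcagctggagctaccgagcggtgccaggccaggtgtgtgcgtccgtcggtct

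Promoters were found for 10302 of the 14012 genes by symbol, but not for PDIA3, the remaining chaperone called with a higher effect at 24 h. The ERSE was present in 14 of them (0.14%), in 6 of 29 ER chaperone promoters and in 3 of 7 promoters of genes with the same direction and a larger effect at 24 h, where HSP90B1 held 2 copies. HSPA5, CANX and ERO1B were the other chaperones with a match. The CCAAT box inside the ERSE was present by itself in 3791 promoters (36.8%). The C/EBP-ATF element was present in 174 promoters (1.69%) and in 7 of 91 promoters of genes with a smaller rise at 24 h, those of ATF3, CHAC1, HERPUD1, FAM24B, NLRP12, TREM1 and ULBP2. TRIB3, DDIT3 and STC2, also of the early rise, had no match to it in their windows, and DNAJB9 had none to the ERSE. These counts describe letters in a window and were not tested.

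In ER-associated degradation, 26 genes were tested, of which 10 (38.5%) had a higher and 6 (23.1%) a lower effect at 24 h. The median was 0.04 and turned negative under both the GC and the length correction. HERPUD1, a scaffold of the ubiquitin ligase HRD1, had effects of 3.04 at 4 h and 1.99 at 24 h and a difference of -1.05 (SE 0.094, adjusted p = 2.90e-08). DERL3, a derlin of the retrotranslocation channel, had effects of 2.91 at 4 h and 4.05 at 24 h and a difference of 1.15 (SE 0.16, adjusted p = 1.47e-05). CRELD1 had effects of 1.80 at 4 h and 2.99 at 24 h and a difference of 1.19 (SE 0.11, adjusted p = 9.15e-08), and the translocon protein TRAM1 one of 1.18 (SE 0.095, adjusted p = 5.46e-09). CRELD1 and TRAM1 are given here because the list holds them, and their part in degradation was not tested. In N-glycan assembly, the pathway that tunicamycin blocks, 40 genes were tested, of which 10 (25%) had a higher and 6 (15%) a lower effect at 24 h. STT3B, a catalytic subunit of oligosaccharyltransferase, was the called gene, with effects of 0.32 at 4 h and 1.33 at 24 h and a difference of 1.01 (SE 0.098, adjusted p = 9.96e-08), which was under 1 in 6 of 22 alternatives. GMPPB, which makes GDP-mannose, had a lower effect at 24 h, with a difference of -0.92 (SE 0.097, adjusted p = 3.28e-07). Among 11 regulators of the IRE1 and ATF6 branches, 2 (18.2%) had a higher and 3 (27.3%) a lower effect at 24 h. The lower ATF6 and CREB3L2 had an adjusted p above 0.05 in 17 and 15 of 22 alternatives, and the higher MBTPS2 in 10. ERN1, which encodes IRE1, had effects of 1.84 at 4 h and 0.76 at 24 h and a difference of -1.08 (SE 0.15, adjusted p = 1.51e-05). XBP1, its splicing target, had effects of 1.98 at 4 h and 1.84 at 24 h, and the difference of -0.14 (SE 0.11) did not pass the test (adjusted p = 0.343).

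Of the 87 genes with an early fall that was smaller at 24 h, MAT2A and DDX3X are given in full. MAT2A, which makes the methyl donor S-adenosylmethionine (chr2:85539168-85545281), was at 351, 349.7 and 355 CPM in DMSO at 4 h, 123, 129.7 and 141 in tunicamycin at 4 h, 252, 267 and 292 in DMSO at 24 h and 289, 303 and 313 in tunicamycin at 24 h. The 3 tunicamycin libraries at 4 h lay below all others, and at 24 h treated and control libraries overlapped. Its difference was 1.58 (SE 0.09, adjusted p = 2.42e-11). DDX3X, an RNA helicase of translation initiation, was at 364, 422 and 421 CPM in DMSO at 4 h, 146, 135 and 148 in tunicamycin at 4 h, 284, 284 and 276 in DMSO at 24 h and 323, 327 and 384 in tunicamycin at 24 h. Its difference was 1.79 (SE 0.1, adjusted p = 2.51e-11). MIR142HG, the host transcript of a blood cell microRNA, differed by 1.77 (SE 0.19, adjusted p = 8.51e-07), DIPK1A by 1.86 (SE 0.24, adjusted p = 4.86e-06), LRFN1 by 1.66 (SE 0.18, adjusted p = 6.65e-07) and ZBTB42 by 1.57 (SE 0.25, adjusted p = 4.73e-05). Cytosolic heat shock genes included HSPA8, the constitutive HSP70, at 3464, 2686 and 3067 CPM in DMSO at 4 h, 834, 818 and 777 in tunicamycin at 4 h, 1624, 1719 and 1688 in DMSO at 24 h and 1005, 1068 and 910.0 in tunicamycin at 24 h. HSPA8 fell from 4 h to 24 h in DMSO by 0.87 and its difference was 1.17 (SE 0.11, adjusted p = 7.44e-08). Of 20 heat shock genes tested, 5 (25%) had a higher and 5 (25%) a lower effect at 24 h, and HSPA1A, which shares reads with its near-identical copy HSPA1B, differed by 1.17 (SE 0.18, adjusted p = 3.06e-05).

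Of the 173 genes higher at 24 h alone, those of largest difference among genes with at least 5 CPM in 1 group included CADM1, IGFBP5 and KCNJ2. CADM1, a cell adhesion molecule, was at 1.59, 1.73 and 1.49 CPM in DMSO at 4 h, 2.49, 1.82 and 2.03 in tunicamycin at 4 h, 2.01, 1.33 and 2.08 in DMSO at 24 h and 12.2, 14.7 and 14.1 in tunicamycin at 24 h. Only the last group stood apart, and the difference was 2.53 (SE 0.25, adjusted p = 1.13e-07). IGFBP5, a binding protein of insulin-like growth factors, was at 1.40, 2.43 and 2.63 CPM in DMSO at 4 h, 1.79, 1.06 and 0.654 in tunicamycin at 4 h, 6.17, 4.33 and 4.70 in DMSO at 24 h and 18.1, 12.9 and 18.6 in tunicamycin at 24 h, with a difference of 2.59 (SE 0.36, adjusted p = 1.07e-05). The potassium channel KCNJ2 differed by 2.50 (SE 0.36, adjusted p = 2.03e-05), SLC22A31 by 2.30 (SE 0.22, adjusted p = 6.08e-08), AGXT, a peroxisomal aminotransferase, by 2.27 (SE 0.19, adjusted p = 6.13e-08), and the integrin ITGA9 by 2.26 (SE 0.36, adjusted p = 5.15e-05). CCL2, a monocyte chemokine of the NF-kappaB list, was at 4.78, 3.33 and 3.78 CPM in DMSO at 4 h, 3.20, 3.17 and 4.07 in tunicamycin at 4 h, 3.87, 3.20 and 5.08 in DMSO at 24 h and 15.7, 16.8 and 16.1 in tunicamycin at 24 h. It differed by 2.20 (SE 0.27, adjusted p = 4.60e-06). BMF, a BH3-only activator of apoptosis, was at 12.8, 14.1 and 12.8 CPM in DMSO at 4 h, 18.4, 16.1 and 15.3 in tunicamycin at 4 h, 29.8, 27.3 and 25.3 in DMSO at 24 h and 91.8, 89.4 and 89.4 in tunicamycin at 24 h. It was the called gene among 17 of the BCL2 family and death receptors, with 1.39 (SE 0.14, adjusted p = 1.13e-07). In that list 6 (35.3%) had a higher and 6 (35.3%) a lower effect at 24 h, among the lower ones BBC3, which encodes PUMA, with -0.70 (SE 0.16, adjusted p = 0.00161).

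Genes with the same direction and a larger effect at 24 h also included IGFBP3, with effects of 2.72 at 4 h and 4.27 at 24 h and a difference of 1.55 (SE 0.33, adjusted p = 9.60e-04). RPS6KA2, a kinase of the RSK family, differed by 1.52 (SE 0.19, adjusted p = 3.18e-06) and STOX2 by 1.2 (SE 0.24, adjusted p = 5.97e-04). The 4 genes with opposite directions were SIK1, SPIB, SMAD1 and ENSG00000236364, of which all but SMAD1 were chosen after their values were seen. All 4 had low levels, with group means of at most 1.79 CPM, and SMAD1, a transducer of BMP signals, had a mean of 0.191 CPM in tunicamycin at 24 h, about the level of 3 counts, so that no fold is given.

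ID3 and ID1, inhibitors of basic helix-loop-helix factors and targets of BMP signalling, had the largest differences among genes lower at 24 h alone that reached 5 CPM in a group. ID3 (chr1:23557926-23559501) was at 10.3, 6.53 and 7.5 CPM in DMSO at 4 h, 11.1, 13.6 and 12.9 in tunicamycin at 4 h, 18.7, 16.6 and 20.9 in DMSO at 24 h and 0.632, 0.223 and 0.272 in tunicamycin at 24 h. The 3 treated libraries at 24 h lay more than 10-fold below every other library, close to the level of 3 counts. Its effect was 0.63 at 4 h and -5.63 at 24 h, a difference of -6.27 (SE 0.29, adjusted p = 6.79e-13). Because the treated libraries at 24 h held few counts, the sizes of the 24 h effect and of the difference are approximate. ID1 was at 38.5, 34.9 and 36.2 CPM in DMSO at 4 h, 21.7, 24.1 and 22.0 in tunicamycin at 4 h, 44.6, 33.7 and 49.1 in DMSO at 24 h and 2.53, 2.01 and 1.31 in tunicamycin at 24 h, with effects of -0.69 at 4 h and -4.47 at 24 h and a difference of -3.78 (SE 0.22, adjusted p = 2.51e-11). In the list of ID genes and TGF-beta or BMP targets, 17 were tested, of which 5 (29.4%) had a higher and 4 (23.5%) a lower effect at 24 h. The receptors TGFBR1, with 1.33 (SE 0.16, adjusted p = 2.53e-06), and TGFBR2, with 0.87 (SE 0.13, adjusted p = 3.19e-05), were among the higher ones, and the inhibitory SMAD6, with -0.80 (SE 0.18, adjusted p = 0.00131), among the lower.

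Among interferon-stimulated genes, 10 of 39 were called with a lower effect at 24 h (2.58% of all genes were). IFI27 was at 8.84, 5.50 and 5.32 CPM in DMSO at 4 h, 5.24, 5.63 and 4.28 in tunicamycin at 4 h, 5.88, 6.46 and 6.31 in DMSO at 24 h and 0.773, 0.447 and 0.327 in tunicamycin at 24 h, and its difference was -3.25 (SE 0.4, adjusted p = 3.02e-06). ISG15, a ubiquitin-like modifier, was at 65.3, 45.1 and 53.2 CPM in DMSO at 4 h, 59.0, 57.7 and 48.7 in tunicamycin at 4 h, 34.6, 42.6 and 45.7 in DMSO at 24 h and 15.2, 15 and 10.8 in tunicamycin at 24 h, with a difference of -1.61 (SE 0.2, adjusted p = 3.74e-06). For both genes the treated libraries at 24 h lay below all 9 others. MX1, an antiviral GTPase, had effects of 0.28 at 4 h and -1.40 at 24 h and a difference of -1.68 (SE 0.19, adjusted p = 1.09e-06). IFITM1, found by its size among all genes and not in the list, differed by -3.07 (SE 0.44, adjusted p = 1.85e-05). Of 39 interferon-stimulated genes, 0 (0.0%) had a higher and 20 (51.3%) a lower effect at 24 h, against 15.1% and 20.3% of all genes, and the median was -0.44. Myeloid identity and granule genes had 9 higher and 9 lower of 31 (29.0% each). PRTN3, a serine protease of neutrophil granules, was at 196, 187 and 192 CPM in DMSO at 4 h, 126, 113 and 109 in tunicamycin at 4 h, 157, 167 and 149.9 in DMSO at 24 h and 27.7, 23 and 17.8 in tunicamycin at 24 h. Its difference was -2.07 (SE 0.16, adjusted p = 3.09e-09). The calcium-binding S100A9 differed by -1.71 (SE 0.29, adjusted p = 2.15e-04). FLT3, a receptor kinase of blood progenitors, was at 76.6, 84.1 and 84.2 CPM in DMSO at 4 h, 91.2, 90.9 and 99.3 in tunicamycin at 4 h, 101, 85.1 and 101 in DMSO at 24 h and 203, 203 and 225 in tunicamycin at 24 h. FLT3 differed by 0.93 (SE 0.11, adjusted p = 9.50e-07) and CST7, a cystatin, by 1.47 (SE 0.18, adjusted p = 5.83e-06). PECAM1, named for the marker sums given above, differed by 1.84 (SE 0.15, adjusted p = 4.91e-09), and its part in other results was not tested.

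All 29 genes of cholesterol synthesis and SREBP targets tested, of 30 listed, had a difference below 0, 27 (93.1%) passed the adjusted p, 20 were called, and the median was -1.33. MVK, mevalonate kinase (chr12:109573255-109598125), was at 23, 18.3 and 18.9 CPM in DMSO at 4 h, 25.4, 27.5 and 26.6 in tunicamycin at 4 h, 43.9, 40.2 and 44.2 in DMSO at 24 h and 13.7, 11.6 and 9.20 in tunicamycin at 24 h. The control libraries were higher at 24 h than at 4 h and the treated ones lower, without overlap. Its effect was 0.40 at 4 h and -1.90 at 24 h, a difference of -2.31 (SE 0.15, adjusted p = 1.59e-10). FDFT1, squalene synthase, was at 256, 208 and 203 CPM in DMSO at 4 h, 318, 316 and 299 in tunicamycin at 4 h, 477, 479.9 and 495 in DMSO at 24 h and 168, 167 and 149 in tunicamycin at 24 h. FDFT1 differed by -2.07 (SE 0.1, adjusted p = 1.78e-12), and HMGCS1, an earlier enzyme of the pathway, by -1.94 (SE 0.11, adjusted p = 1.83e-11). Over the list, the median change from 4 h to 24 h was 0.85 in DMSO and -0.42 in tunicamycin, so that the larger part of the median lay in the control libraries. The sterol element (TCACNCCAC) was present in 1 of 23 promoters of the list, that of SREBF2, and in 112 (1.09%) of all.

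**Figure D3:**
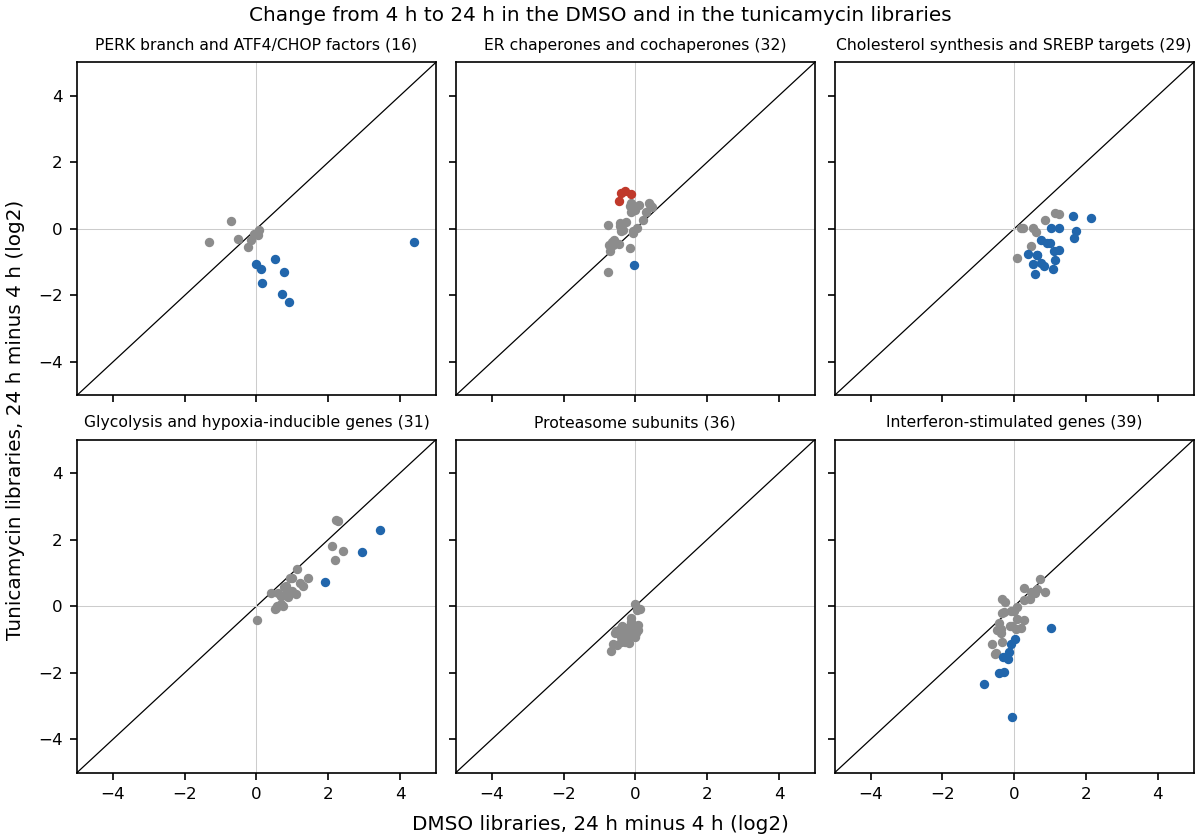
Change from 4 h to 24 h on the log2 scale in DMSO (horizontal) and in tunicamycin (vertical) for each tested gene of 6 lists, with the number tested in brackets; red and blue mark a called higher or lower effect at 24 h and the line marks equal changes. Cholesterol genes lie to the right of 0 in DMSO (median 0.85) and proteasome genes below 0 in tunicamycin (median -0.80).

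Glycolysis and hypoxia-inducible genes stood higher at 24 h in both arms by their medians. The median change from 4 h to 24 h was 0.98 in DMSO and 0.60 in tunicamycin. Of 31 genes tested, 2 (6.5%) had a higher and 19 (61.3%) a lower effect at 24 h, with a median of -0.53. ALDOC, an aldolase, was at 46.0, 43.3 and 35.8 CPM in DMSO at 4 h, 35.1, 34.6 and 31.6 in tunicamycin at 4 h, 336, 303 and 316 in DMSO at 24 h and 115, 94.6 and 102 in tunicamycin at 24 h. It was higher at 24 h in both arms, by more in DMSO, and the difference was -1.31 (SE 0.12, adjusted p = 6.08e-08). The neuronal enolase ENO2 differed by -1.17 (SE 0.24, adjusted p = 6.50e-04) and the glucose transporter SLC2A3 by -1.17 (SE 0.14, adjusted p = 2.28e-06). NDRG1, with 0.30 (SE 0.1, adjusted p = 0.0254), and P4HA1, a prolyl hydroxylase of collagen, with 0.39 (SE 0.11, adjusted p = 0.0107), had a higher effect at 24 h. For NDRG1 the adjusted p was above 0.05 in 3 of 22 alternatives. Among 15 tubulin genes, 0 (0.0%) had a higher and 9 (60.0%) a lower effect at 24 h. TUBA1A was at 49.4, 44.4 and 43.2 CPM in DMSO at 4 h, 57.2, 46.3 and 50.1 in tunicamycin at 4 h, 177, 170.4 and 178 in DMSO at 24 h and 61.3, 60.6 and 49.6 in tunicamycin at 24 h, so that the DMSO libraries at 24 h alone stood apart, and the difference was -1.79 (SE 0.12, adjusted p = 3.31e-10). Reads of tubulin genes can be shared between near-identical copies.

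Lists of growth and of basic cell functions differed in their counts. In the mitosis list, 23 of 37 genes (62.2%, against 20.3% of all genes) were lower and none higher, 3 were called, at a median of -0.48. CDC20, the activator of the anaphase-promoting complex, was at 239.9, 219.8 and 214 CPM in DMSO at 4 h, 245, 240.4 and 218 in tunicamycin at 4 h, 193, 203 and 196 in DMSO at 24 h and 88.7, 83.7 and 70.6 in tunicamycin at 24 h, with a difference of -1.35 (SE 0.1, adjusted p = 2.20e-09), and the kinase PLK1 differed by -1.26 (SE 0.094, adjusted p = 1.61e-09). Of 36 proteasome genes, 28 (77.8%) were lower, none was higher and none was called, at a median of -0.51. PSMB6, a catalytic subunit, had effects of -0.04 at 4 h and -0.99 at 24 h and a difference of -0.95 (SE 0.16, adjusted p = 1.29e-04). Of 49 nuclear genes of the respiratory chain, 25 (51.0%) were lower and none higher, at a median of -0.33, which was -0.21 without tunicamycin 24 h replicate 3. The 13 mitochondrially encoded genes all had positive differences, at a median of 0.54, and 3 passed the adjusted p. Their median change from 4 h to 24 h was -0.49 in DMSO and 0.12 in tunicamycin. MT-ND5 was at 445, 1057 and 906 CPM in DMSO at 4 h, 427, 451 and 585 in tunicamycin at 4 h, 449.9, 446 and 493 in DMSO at 24 h and 461, 418 and 666 in tunicamycin at 24 h. DMSO 4 h replicates 2 and 3 thus stood above all other libraries, whereas replicate 1 lay among those of the other groups. The median difference was 0.75 without DMSO 4 h replicate 1 and 0.36 without tunicamycin 24 h replicate 3. Of the 3 genes that passed, MT-CYB and MT-ND5 each lost the adjusted p in 8 of 22 alternatives and MT-ND1 in 1. All 3 had an adjusted p above 0.05 without DMSO 4 h replicate 2. In MYC targets and ribosome biogenesis 17 of 38 (44.7%) were lower and 2 higher, in DNA replication 15 of 44 (34.1%) were lower and 4 higher, and of 77 cytosolic ribosomal protein genes 4 (5.2%) were lower and none higher, against 20.3% and 15.1% of all genes. Differences were nonetheless below 0 for 67 of the 77 ribosomal protein genes and above 0 for 10, at a median of -0.22. That median was -0.36 without DMSO 4 h replicate 1 and -0.04 without tunicamycin 24 h replicate 3. CCNE1, cyclin E1, had an early fall that was smaller at 24 h, with effects of -1.55 at 4 h and -0.31 at 24 h and a difference of 1.24 (SE 0.13, adjusted p = 4.34e-07).

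**Figure D4:**
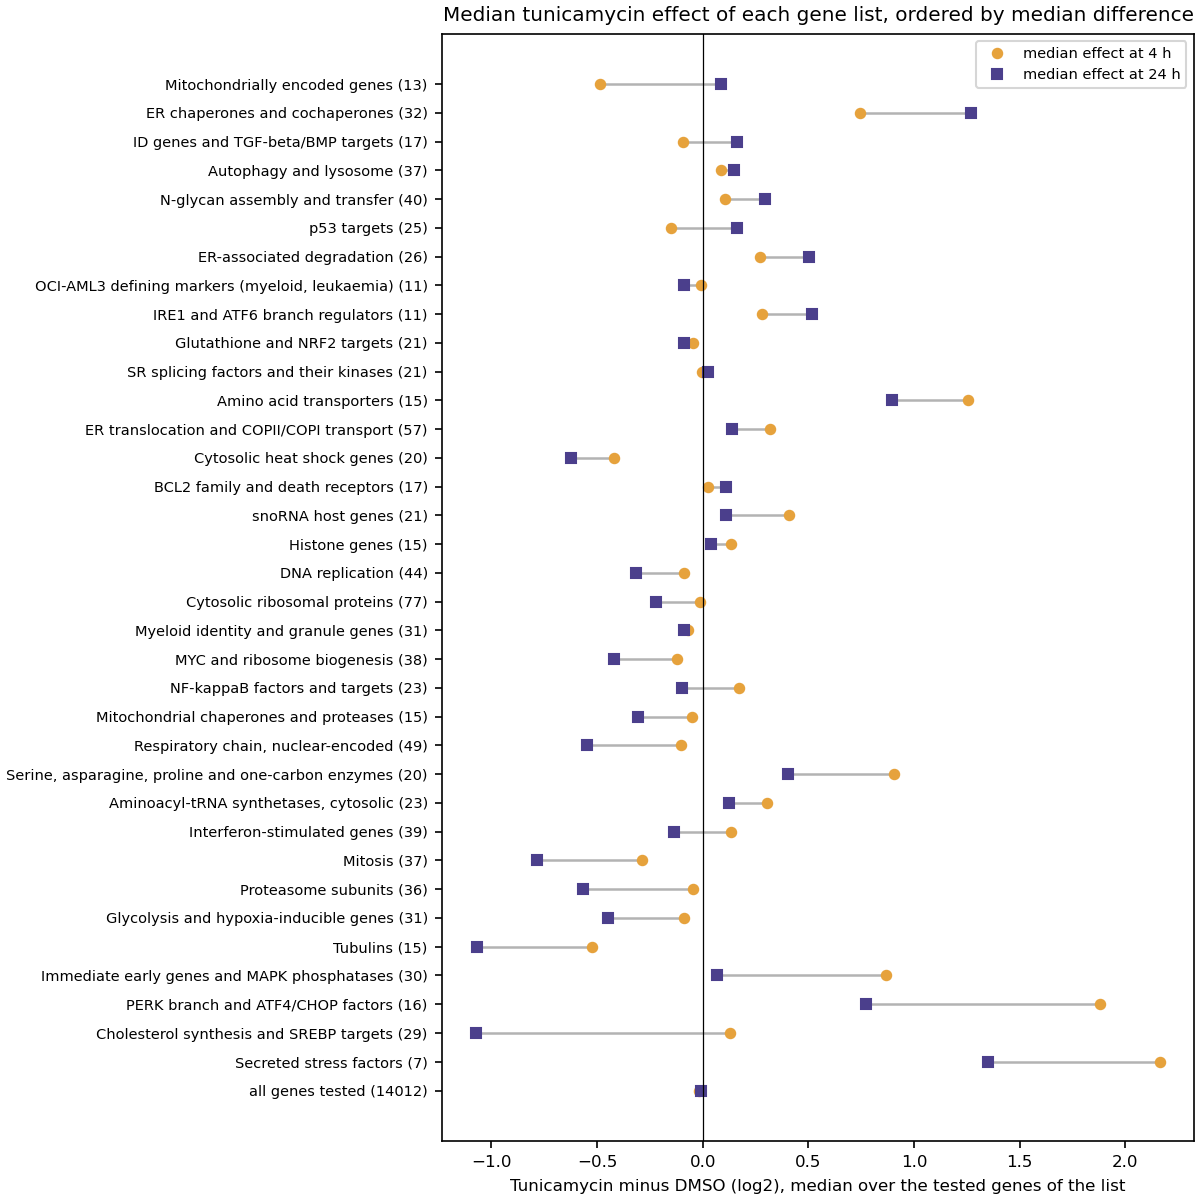
Median log2 effect of tunicamycin at 4 h (circles) and at 24 h (squares) over the tested genes of each list, with their number in brackets and all 14012 genes at the foot. The PERK list goes from 1.88 to 0.77, ER chaperones from 0.74 to 1.27 and cholesterol genes from 0.13 to -1.07.

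JUN, a subunit of AP-1, was at 5.65, 11.2 and 5.55 CPM in DMSO at 4 h, 52.5, 41.4 and 46.7 in tunicamycin at 4 h, 11.4, 10.6 and 11 in DMSO at 24 h and 10.2, 6.92 and 7.62 in tunicamycin at 24 h. Its treated libraries at 24 h lay below all 3 controls, and the difference was -3.07 (SE 0.25, adjusted p = 7.44e-09). Of 30 immediate early genes and MAPK phosphatases, 2 (6.7%) had a higher and 15 (50.0%) a lower effect at 24 h, and 9 of the lower ones were called. Their median change from 4 h to 24 h was 0.59 in DMSO and -0.09 in tunicamycin. FOSB differed by -2.0 (SE 0.45, adjusted p = 0.00138) and NR4A1, an orphan nuclear receptor, by -1.60 (SE 0.22, adjusted p = 8.34e-06). DUSP2, a phosphatase of MAP kinases, went the other way with 1.53 (SE 0.27, adjusted p = 1.61e-04). Among 23 NF-kappaB factors and targets, 5 (21.7%) had a higher and 11 (47.8%) a lower effect at 24 h, with RELB at -1.27 (SE 0.17, adjusted p = 9.04e-06) and TNFAIP3, a feedback inhibitor, at -1.09 (SE 0.14, adjusted p = 3.42e-06). Of 25 p53 targets, 8 (32.0%) had a higher and 10 (40.0%) a lower effect at 24 h. GADD45A, a sensor of growth arrest and DNA damage, had effects of 2.02 at 4 h and 0.25 at 24 h and a difference of -1.77 (SE 0.15, adjusted p = 1.98e-08). CDKN1A, the inhibitor p21, differed by -1.09 (SE 0.14, adjusted p = 4.43e-06), to which DMSO libraries contributed a change of 1.16, and TP53INP1 by 1.55 (SE 0.22, adjusted p = 1.19e-05).

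The study followed splicing through CLK1 and SRSF1, so SR proteins and their kinases were listed too. It reported a rise of SRSF1 at 4 h from protein assays and described it as independent of transcription. The values here are of RNA and do not measure protein. SRSF1, a splicing factor of the SR family, was at 520.1, 512 and 539 CPM in DMSO at 4 h, 329, 335 and 359 in tunicamycin at 4 h, 341, 344 and 383 in DMSO at 24 h and 344, 351 and 388 in tunicamycin at 24 h. The DMSO libraries at 4 h lay above the other 3 groups, which overlapped. Its effect was -0.62 at 4 h and 0.02 at 24 h, with a difference of 0.64 (SE 0.088, adjusted p = 1.04e-05). CLK1, a kinase of SR proteins, had effects of 0.42 at 4 h and 0.34 at 24 h, and its difference of -0.08 (SE 0.24) did not pass the test (adjusted p = 0.816). Of 21 genes tested, 5 (23.8%) had a higher and 4 (19%) a lower effect at 24 h, near the 15.1% and 20.3% of all genes, none was called, and the median of 0.01 was negative under the GC correction. SRSF7 differed by -0.59 (SE 0.099, adjusted p = 9.58e-05) and SRSF3 by -0.41 (SE 0.085, adjusted p = 8.60e-04). Gene counts do not separate isoforms, so splicing itself was not analysed here.

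Among the 303 genes called at neither time, 215 had a higher and 88 a lower effect at 24 h. SLC9A3-AS1 had effects of -0.85 at 4 h and 0.79 at 24 h and a difference of 1.64 (SE 0.24, adjusted p = 1.82e-05). FCGR1A, the high-affinity IgG receptor, whose reads can be shared with near-identical copies, had effects of 0.89 at 4 h and -0.75 at 24 h and a difference of -1.63 (SE 0.18, adjusted p = 4.87e-07). SLC5A3, an inositol transporter, differed by 1.60 (SE 0.25, adjusted p = 4.40e-05), LY6G5B by 1.59 (SE 0.34, adjusted p = 0.00105) and CFAP44 by 1.56 (SE 0.36, adjusted p = 0.00176). Use of strand in counting is not given in the sources used here, and ADM2, ATF5, CFAP44, CRELD1, CRELD2, DDIT3, DERL3, DIPK1A, EIF2AK3, ERO1B, FCGR1A, FOSB, GMPPB, HMGCS1, HSP90B1, HYOU1, ITGA9, MAT2A, MIR142HG, MTHFD2, MVK, PDIA3, SLC7A11, SLC9A3-AS1, SRSF1, TNFAIP3, TP53INP1, TRAP1 and TUBA1A overlap a tested gene on the opposite strand, so that their counts may hold reads of that partner. ALDOC, ENO2, HERPUD1, LY6G5B and SLC5A3, and of the former CFAP44, GMPPB and SRSF1, overlap one on the same strand.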

How the data were processed

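Polyadenylated RNA of OCI-AML3 and HEK293T cells was sequenced in 21 libraries of 7 groups, and the 12 libraries described above enter the comparison. The authors deposited expected counts per gene from RSEM after alignment with STAR to hg38, per the labels and the methods. Of these estimated counts, 3.54% to 3.91% per library of the 12, and up to 4.22% in HEK293T libraries, were not exactly whole, and the counts of all 21 libraries were rounded. The table held 60671 genes, 60401 of them with a symbol, and 0 columns without a sample. The 14012 genes that reached 1 CPM in 8 or more libraries were kept. After TMM scaling, edgeR 4.0.16 (quasi-likelihood test, R 4.3.3) was run on all 7 groups, which share 1 estimate of spread, and p-values were adjusted by Benjamini-Hochberg over all genes tested. CPM values are TMM-scaled, except those of markers, which use library size. SE is the log2 difference divided by the square root of F.

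Gene coordinates are from GENCODE 44, whose build is that of the files. The comparison and gene lists were chosen with earlier results of these data known. Named genes are up to 6 of largest difference in each pattern (over 3 counts in each group mean, 5 CPM in 1 group), up to 4 per list and direction at adjusted p of at most 0.05, and genes that the study names. Others are said to be chosen after their values were seen, or come from the marker lists, as PECAM1 and COL1A2 do. Some genes named by the rule are not reported here. Alternatives were limma 3.58.1 (voom), DESeq2 1.42.0, other scaling and filters, the 12 libraries alone, a replicate block, each library left out, and, added after the data were seen, lowess corrections (span 0.3) for GC content and transcript length. The fitting was tested on simulated data. Figures were drawn with matplotlib 3.10.9.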

Additional observations from a re-analysis of the deposited data

Results flagged for a closer look

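A difference between the effects at both times was tested directly by the interaction term. It was called for 487 genes with a higher and 362 genes with a lower effect of tunicamycin at 24 h than at 4 h. Of the 235 genes named by the stated rule, 230 had a difference at adjusted p of at most 0.05, edgeR's quasi-likelihood test. The rule itself chose most of them by that adjusted p or by a call, so this count was largely fixed by the choice. No test for single outlying libraries was run, but counts with each library left out in turn are given below.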

How the results depend on the processing

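The count of genes with a higher effect at 24 h was 423 to 650 with each library left out in turn, and that of genes with a lower effect 301 to 407. Without DMSO 4 h replicate 1 there were 650 and 407. Limma voom gave 494 and 385, DESeq2 549 and 325, the 12 libraries alone 495 and 301, and no filter 689 and 462. Library size without TMM gave 672 and 282 and moved the median of all genes to 0.0784. Correction for GC content gave 523 and 336 (312 of the 362 shared) and for transcript length 512 and 334 (300 shared). Genes with an early fall numbered 150 without a filter. Genes with opposite directions numbered 21 without a filter, 11 with 1 CPM in 3 libraries, and 2 to 8 with a library left out (2 without DMSO 24 h replicate 1, 8 without DMSO 4 h replicate 1). The cause was not tested. With the replicate number as a block, 483 and 365 genes were called, 474 and 359 of them shared. Same-numbered libraries deviated together weakly (correlation -0.174 to 0.308, over 0.1 in 4 of 18 pairs), so the numbers were not taken to pair them. Over 22 alternatives, 202 of 235 named genes kept their side of the adjusted p threshold, 32 lost it in at least 1, and HYOU1 passed in 9. None changed sign where the main fit or the alternative passed that threshold. CLK1 (-0.28 to 0.14) and ERO1B (-0.22 to 0.07), which passed in no fit, did change sign between alternatives. By both thresholds 102 of the named genes were called, 85 of them in every alternative. The other 17 lost the call in at least 1, among them DDIT3 in 12, DNAJB9 and STT3B in 6 each, SPCS3 in 5, HERPUD1 in 4, SLC7A11 in 3, and ERN1, CDKN1A and TNFAIP3 in 2 each and ENO2 in 1. Median differences of the lists on amino acid transporters, ER transport, ER-associated degradation, NRF2 targets, IRE1 and ATF6 regulators, p53 targets and SR factors changed sign in at least 1 alternative. At this depth, values below about 1 CPM, such as those of ID3 in tunicamycin at 24 h, rest on few counts.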

Other observations

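Shares of lists are given here beside 15.1% with a higher and 20.3% with a lower effect at 24 h over all genes. Of 37 autophagy and lysosome genes, 7 (18.9%) had a higher and 6 (16.2%) a lower effect at 24 h, both near those shares. CTSB, a lysosomal protease, had effects of -0.17 at 4 h and 0.68 at 24 h and a difference of 0.84 (SE 0.091, adjusted p = 4.42e-07). Of 15 histone genes, 3 (20%) had a higher and 4 (26.7%) a lower effect at 24 h, and H2AC6 differed by -1.66 (SE 0.21, adjusted p = 3.23e-06) with changes from 4 h to 24 h of 3.11 in DMSO and 1.45 in tunicamycin. Of 21 snoRNA host genes, 3 (14.3%) had a higher and 7 (33.3%) a lower effect at 24 h, and SNHG1 had effects of 1.35 at 4 h and 0.04 at 24 h and a difference of -1.31 (SE 0.14, adjusted p = 6.69e-07). Among 21 glutathione and NRF2 targets, 3 (14.3%) had a higher and 7 (33.3%) a lower effect at 24 h. Of 15 mitochondrial chaperones and proteases, 1 (6.7%) had a higher and 8 (53.3%) a lower effect at 24 h, and TRAP1, the mitochondrial HSP90, differed by -0.99 (SE 0.11, adjusted p = 7.08e-07). Of 57 genes of ER translocation and transport, 7 (12.3%) had a higher and 15 (26.3%) a lower effect at 24 h, and SPCS3, a subunit of signal peptidase, differed by 1.02 (SE 0.1, adjusted p = 1.10e-07).

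Genes were also ordered into 5 bins of like size. The median difference went from 0.117 in the bin of lowest GC content to -0.139 in that of highest, and from -0.175 in the bin of shortest transcripts to 0.125 in that of longest. These values describe the table and their part in the calls was not tested beyond the corrections given above.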
